A study of Mus musculus with 55 samples.

Results

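The genes described here encode the protein subunits of the mitochondrial ribosome, measured in mouse heart. They were chosen by name: every gene whose symbol starts with Mrpl (large subunit) or Mrps (small subunit) followed by a number, with a probe set annotated to it alone, and with a linear signal above 20 in 3 or more arrays. That gave 76 genes, 47 Mrpl and 29 Mrps, of 8237 genes bright enough to be tested and of 18193 with a probe set of their own. All 76 passed the minimum in each of the 55 arrays, so the filter on dim signals removed no member. The 76 genes had 156 probe sets, and for each of the 42 genes with several the probe set with the highest mean was taken. The lowest single value of any member was 6.04 on the log2 scale, against a minimum of 4.32.

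Gene expression was measured on 55 Affymetrix arrays, 1 per heart, from male Sv129 mice, as log2 signals deposited by the authors. Of these, 25 hearts came from wild-type mice (WT, substrain 129S1/SvImJ) and 30 from PPARα-/- mice (KO, substrain 129S4/SvJae), which lack a nuclear receptor for fatty acids, so the absence of the receptor and the substrain cannot be told apart in any comparison of genotypes. After an olive oil run-in diet and a fast of 4 h, each mouse was given 400 µL by gavage 1 time, and hearts were collected after 6 h. The gavage was carboxymethyl cellulose vehicle at 0.5% (control), the synthetic PPARα agonist Wy14643 at 10 mg/mL in that vehicle, or 1 of 4 pure triglycerides, triolein, trilinolein, trilinolenin or tridocosahexaenoin, which carry oleic, linoleic, linolenic and docosahexaenoic acid. In WT there were 3 hearts with the control gavage, 4 each with triolein, trilinolenin and Wy14643, and 5 each with trilinolein and tridocosahexaenoin; in KO there were 5 with each of the 6 gavages. The labels name no vehicle for the triglycerides, so the oil and the lack of carboxymethyl cellulose cannot be told apart against the control. The labels give an age of 9 to 12 weeks in one place and 2 to 6 months in another, and a control treatment of none in one place and of vehicle in another.

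Mitochondria keep a small genome that encodes core subunits of the respiratory chain and ATP synthase, and these proteins are made on a ribosome found only in the mitochondrial matrix. Its RNAs come from the mitochondrial genome, whereas all of its proteins are encoded in the nucleus, made in the cytosol and imported. Some of these proteins descend from bacterial ribosomal proteins, and others were added during the evolution of mitochondria. Heart muscle depends on oxidative phosphorylation, and inherited defects of several of these proteins, among them MRPL44 and MRPS22, are known causes of cardiomyopathy. A symbol does not always give the place of the protein: the products of Mrps18a and Mrps30 sit in the large subunit, and that of Mrps36 is known as a component of the α-ketoglutarate dehydrogenase complex.

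The targeted gene was checked first. The brightest of the Ppara probe sets read 7.38 to 8.59 in WT hearts and 6.93 to 7.61 in KO hearts, with 18 of the 30 KO arrays below every WT array, and another probe set read 5.83 to 7.33 and 4.64 to 5.93, with 29 of 30 below. The summed linear signal of 6 cardiomyocyte markers ranged from 93600 to 101000 in WT and from 95700 to 102000 in KO hearts, so the tissue carried its defining markers in every array. Of these 6 markers 1 was higher in KO hearts. Beside all marker counts here, 39% of all tested genes differed between the genotypes in the fit described below. Of 5 macrophage markers 4 were higher in KO hearts (median log2 difference 0.30) and 3 of 6 fibroblast markers were lower. Their summed signals were 720 to 1180 and 858 to 1250 for macrophages and 5450 to 7480 and 5050 to 6360 for fibroblasts. Of 4 smooth muscle markers 1 was higher, of 6 endothelial markers 1 was higher and 1 lower, and none of 4 atrial muscle markers was called (summed signals 4740 to 16800 in WT and 5080 to 19700 in KO hearts). Ucp1, Adipoq and Elovl3, markers of brown fat, were below the brightness minimum, and Cidea, the remaining one, was lower in KO hearts (-0.77). The log2 difference between the 3′ and 5′ Actb control probe sets, a measure of RNA integrity, was 0.47 to 0.87 (median 0.69) in WT and 0.65 to 0.99 (median 0.76) in KO hearts. The part of these differences in the results on ribosomal protein genes was not tested. In whole tissue, fewer cells of a type and less RNA per cell cannot be told apart.

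The promoters of many genes for mitochondrial proteins hold sites of NRF1, GABPA and YY1, general activators of nuclear genes for mitochondria, and the promoters of a few members whose signals are followed below are shown to place such sites. RefSeq promoter windows on GRCm38.p6, from 250 bases before to 50 bases after the annotated start, were found for 67 of the 76 genes, and both strands were searched for fixed letters. The NRF1 letters (GCGCA, any base, GCGC), which can match both strands at one place, occurred in 12 of the 67 (17.9%), against 13.1% of 6757 tested genes with a window. The GABPA letters CCGGAAGT occurred in 12 (17.9%, against 9.96%), and the YY1 letters AAGATGGCG in 8 (11.9%, against 4.2%). The E-box CACGTG, the site of MYC and related factors, occurred in 5 (7.46%, against 12.4%). Neither the direct repeat of PPAR elements (AGGTCA, any base, AGGTCA) nor the ERRα letters TCAAGGTCA was found in a member window, and 0.0296% and 0.296% of the tested genes held them. These are matches of letters and not measured binding. The 250 bases before the start of Mrps27 (chr13:99344536-99344785), Mrpl12 (chr11:120484387-120484636) and Mrpl36 (chr13:73330759-73331008), all on the plus strand, are given 5′ to 3′ with the matching letters in capitals. The capitals mark GABPA letters on the minus strand, ending 41 bases before the start, in Mrps27, and NRF1 letters on the minus strand, 71 bases before the start, in Mrpl12. In Mrpl36 they mark an E-box 37 bases before the start and, after it, YY1 letters on the minus strand 22 bases before the start.
Mrps27: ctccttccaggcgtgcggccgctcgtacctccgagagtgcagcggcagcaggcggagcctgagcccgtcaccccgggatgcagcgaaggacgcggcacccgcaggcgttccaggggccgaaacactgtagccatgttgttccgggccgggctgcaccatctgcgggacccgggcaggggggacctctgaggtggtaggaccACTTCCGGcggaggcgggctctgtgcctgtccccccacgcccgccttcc
Mrpl12: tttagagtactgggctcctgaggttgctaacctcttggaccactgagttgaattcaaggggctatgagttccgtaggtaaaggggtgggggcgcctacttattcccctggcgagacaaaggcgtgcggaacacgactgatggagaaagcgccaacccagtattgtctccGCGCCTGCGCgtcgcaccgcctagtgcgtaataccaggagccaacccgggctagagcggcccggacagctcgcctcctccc
Mrpl36: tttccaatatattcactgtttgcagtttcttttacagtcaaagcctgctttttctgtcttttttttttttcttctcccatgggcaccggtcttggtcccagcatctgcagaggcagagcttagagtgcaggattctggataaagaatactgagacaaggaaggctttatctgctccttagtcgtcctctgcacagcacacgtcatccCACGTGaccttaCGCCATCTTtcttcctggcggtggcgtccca

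Between the genotypes, over all gavages, the members differed little. The mean of the 6 KO group means was compared with that of the 6 WT group means in a limma fit of all 12 groups, and "called" means an adjusted p under 0.05 after adjustment over all 8237 genes. Of the 76 members 15 were called (19.7%), 11 higher and 4 lower in KO hearts, against 39% of all tested genes (22.8% higher and 16.1% lower). Among the chosen probe sets, the largest differences were a 1.16-fold higher signal of Mrps18b and a 1.15-fold lower signal of Mrpl36. The median log2 difference was 0.011 over the members and 0.016 over all tested genes, and 48 of the 76 members lay above 0. The balance of rises and falls depended on the scaling: after each array was centred on the median of the tested genes, 15 members were again called, 11 of them the same, but 7 were higher and 8 lower (18.2% and 20.4% of all tested genes). The medians were then -0.01 and -0.005, and 32 members lay above 0.

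For the 1 probe set chosen per gene, the size of these differences is bounded closely. Of the 26 members with several bright probe sets, some gave larger differences in a set not chosen. Among these were -0.222 ± 0.049 for Mrpl1 (chosen set -0.043), -0.218 ± 0.06 for Mrps25 (-0.06) and 0.221 ± 0.05 for Mrpl9 (0.096), each with its SE. Another was -0.159 ± 0.064 for Mrpl35, whose chosen set gave 0.017, in a set with a mean log2 signal of 6.324. The Mrpl1 and Mrps25 sets had mean log2 signals of 4.09 and 4.387, near the minimum of 4.32. The 95% interval of the genotype difference lay within a 1.2-fold change in either direction for 74 of the 76 members (97.4%) and for 74% of all tested genes, and within 1.5-fold for 76 members. The members also varied less between replicate hearts: the median residual SD was 0.10 over the members and 0.17 over all tested genes on the log2 scale, and it ran from 0.058 for Mrpl24 to 0.24 for Mrps18b. No genotype difference of a member that was not called is thereby shown to be 0.

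**Figure D1:**
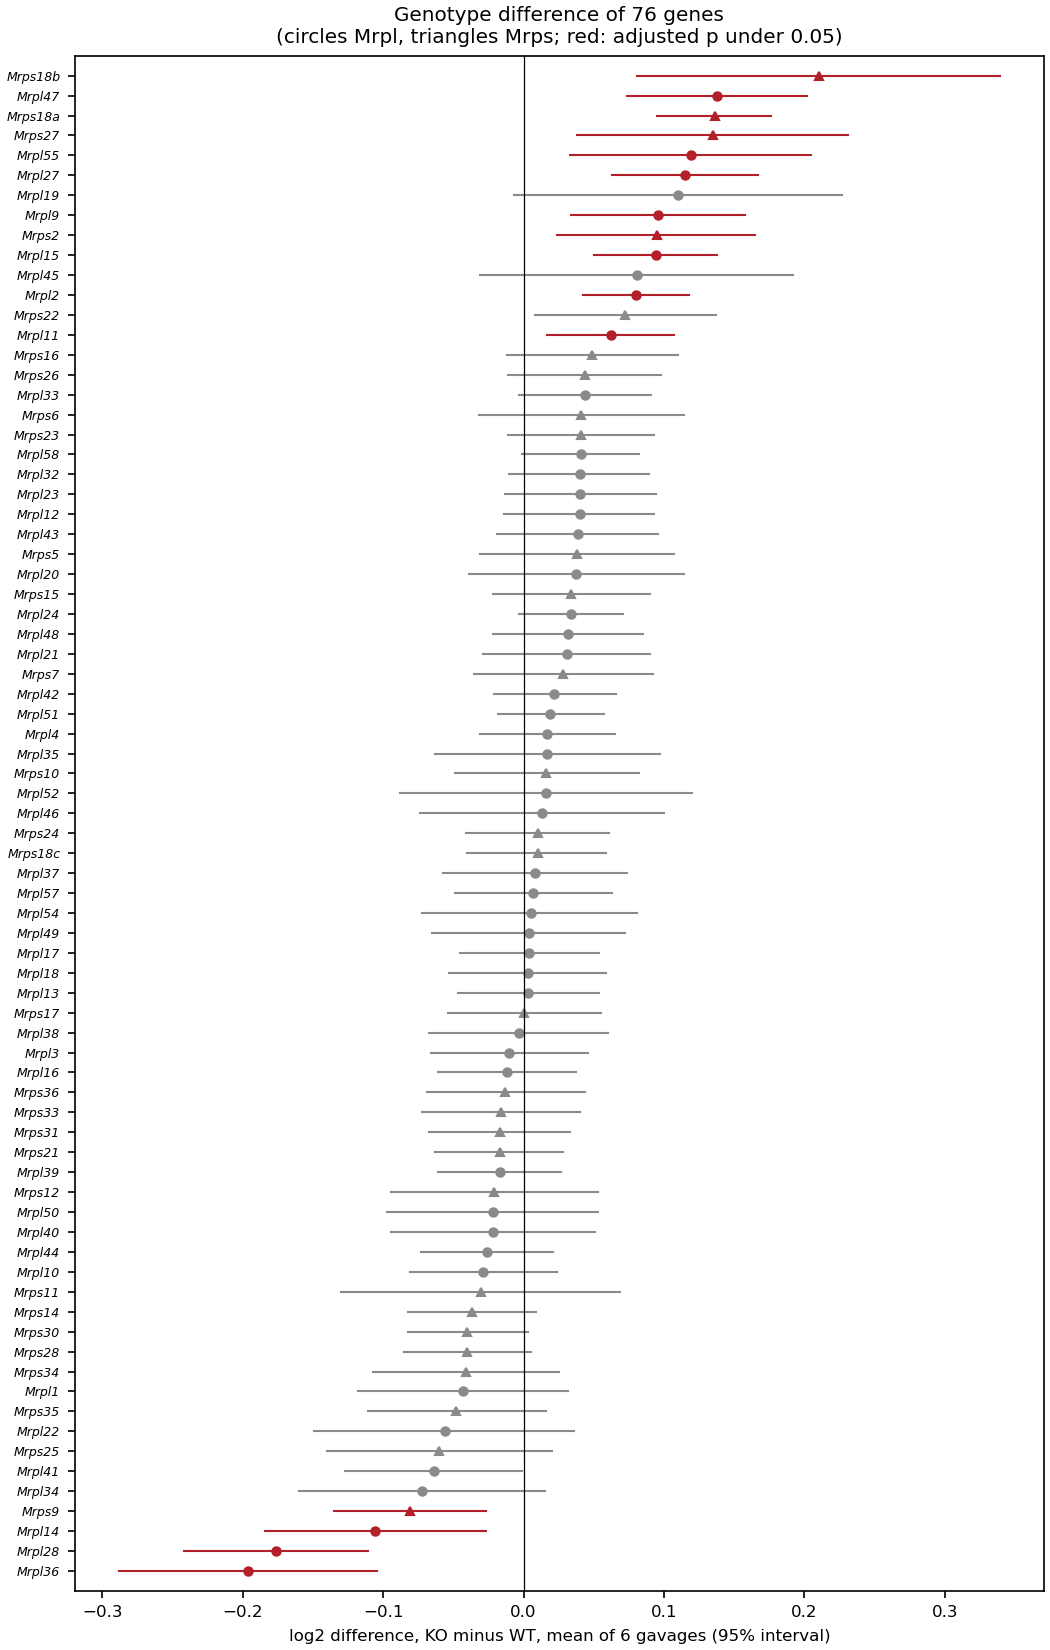
Log2 difference between KO and WT hearts (x axis, mean over 6 gavages, point with 95% interval) of each of the 76 genes (y axis), ordered by size, with circles for Mrpl and triangles for Mrps genes and the 15 called genes in red. All points lie between -0.20 and 0.21, and 11 called genes are on the higher side against 4 on the lower.

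Mrps18a, Mrps18b and Mrps18c are related copies of 1 bacterial ribosomal protein, and they did not give the same result. Mrps18a (Entrez 68565) read 8.89 to 9.16 with a median of 9.00 in the 25 WT hearts, and 8.99 to 9.29 with a median of 9.16 in the 30 KO hearts. The ranges overlapped, but 13 KO hearts lay above every WT heart and 11 WT hearts below every KO heart. Its log2 difference was 0.14 ± 0.02 (SE; limma, adjusted p = 2.81e-07), the lowest adjusted p among the members, and it was higher in KO hearts in all 6 gavages, by 0.10 to 0.20. Mrps18b (Entrez 66973), whose protein is part of the small subunit, read 6.41 to 7.39 (median 7.08) in WT and 6.77 to 7.62 (median 7.29) in KO hearts. The wide spread of Mrps18b left only 6 KO hearts above every WT heart, and its difference was 0.21 ± 0.064 (SE; limma, adjusted p = 0.00774), positive in all 6 gavages. Mrps2, a small subunit protein with a bacterial counterpart, was higher by 0.095 ± 0.035 (SE; limma, adjusted p = 0.0281), a call lost without WT control replicate 2 (0.0599), without WT trilinolenin replicate 4 (0.0518), with no filter on dim genes (0.0523) and with the mean of all probe sets (0.0626). Mrps18c differed by 0.01 ± 0.024 (SE; limma, adjusted p = 0.791) and was not called. Whether the 3 genes differ from each other in this response was not tested.

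Among the Mrpl genes 7 of 47 were called higher and 3 lower in KO hearts, against 22.8% and 16.1% of all tested genes. Mrpl47, whose protein lies near the exit of the peptide tunnel, read 8.01 to 8.51 (median 8.35) in WT and 8.22 to 8.64 (median 8.46) in KO hearts, a log2 difference of 0.14 ± 0.032 (SE; limma, adjusted p = 0.000488) with 8 KO hearts above every WT heart. Mrpl27, a counterpart of a bacterial protein that reaches into the site of peptide bond formation, read 9.67 to 10.06 (median 9.87) and 9.85 to 10.13 (median 9.97), with a difference of 0.12 ± 0.026 (adjusted p = 0.00033) by the same limma fit. Its other bright probe set gave 0.11. The remaining called rises were 0.12 for Mrpl55, 0.096 for Mrpl9, 0.094 for Mrpl15, 0.08 for Mrpl2, which belongs to the core around the peptidyl transferase center, and 0.062 for Mrpl11, part of the stalk base where elongation factors bind. After centring, Mrpl11, Mrpl55, Mrps2 and Mrps27 were no longer called (adjusted p = 0.151, 0.0687, 0.0635 and 0.0553), and Mrpl55 also lost its call after quantile normalization again (0.0598). The 4 bright probe sets of Mrpl15 gave 0.094, 0.081, 0.054 and 0.098, all positive.

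The falls were fewer and included the largest drop among the chosen probe sets. Mrpl36 (Entrez 94066), a small zinc-binding protein of bacterial origin whose promoter is printed above, read 7.29 to 8.05 (median 7.58) in WT and 7.11 to 7.70 (median 7.46) in KO hearts. The KO range was shifted down, with 10 WT hearts above every KO heart, and the log2 difference was -0.20 ± 0.046 (SE; limma, adjusted p = 0.000563). Mrpl28 (Entrez 68611), another counterpart of a bacterial large subunit protein, read 9.68 to 10.12 (median 9.88) and 9.40 to 9.94 (median 9.71), a difference of -0.18 ± 0.032 (SE; limma, adjusted p = 1.84e-05), with 12 KO hearts below every WT heart. Its 3 bright probe sets gave -0.18, -0.20 and -0.14. Mrpl36 and Mrpl28 were lower in KO hearts in all 6 gavages. Mrpl14, at the interface of the subunits, was lower by a smaller amount (-0.11 ± 0.039, SE; limma, adjusted p = 0.0274), and so was the small subunit gene Mrps9 (-0.081 ± 0.027, adjusted p = 0.0144). The call of Mrps9 depended on its probe set, since its other bright sets gave -0.021 and -0.026 and the mean of all sets was not called (adjusted p = 0.282). After centring, Mrpl41, Mrps14, Mrps28 and Mrps30 were called lower as well (-0.085, -0.058, -0.061 and -0.061; limma, adjusted p = 0.0149 to 0.0307). The call of Mrpl14 was lost without WT control replicate 2 (adjusted p = 0.0652) and without WT triolein replicate 2 (0.0511).

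**Figure D2:**
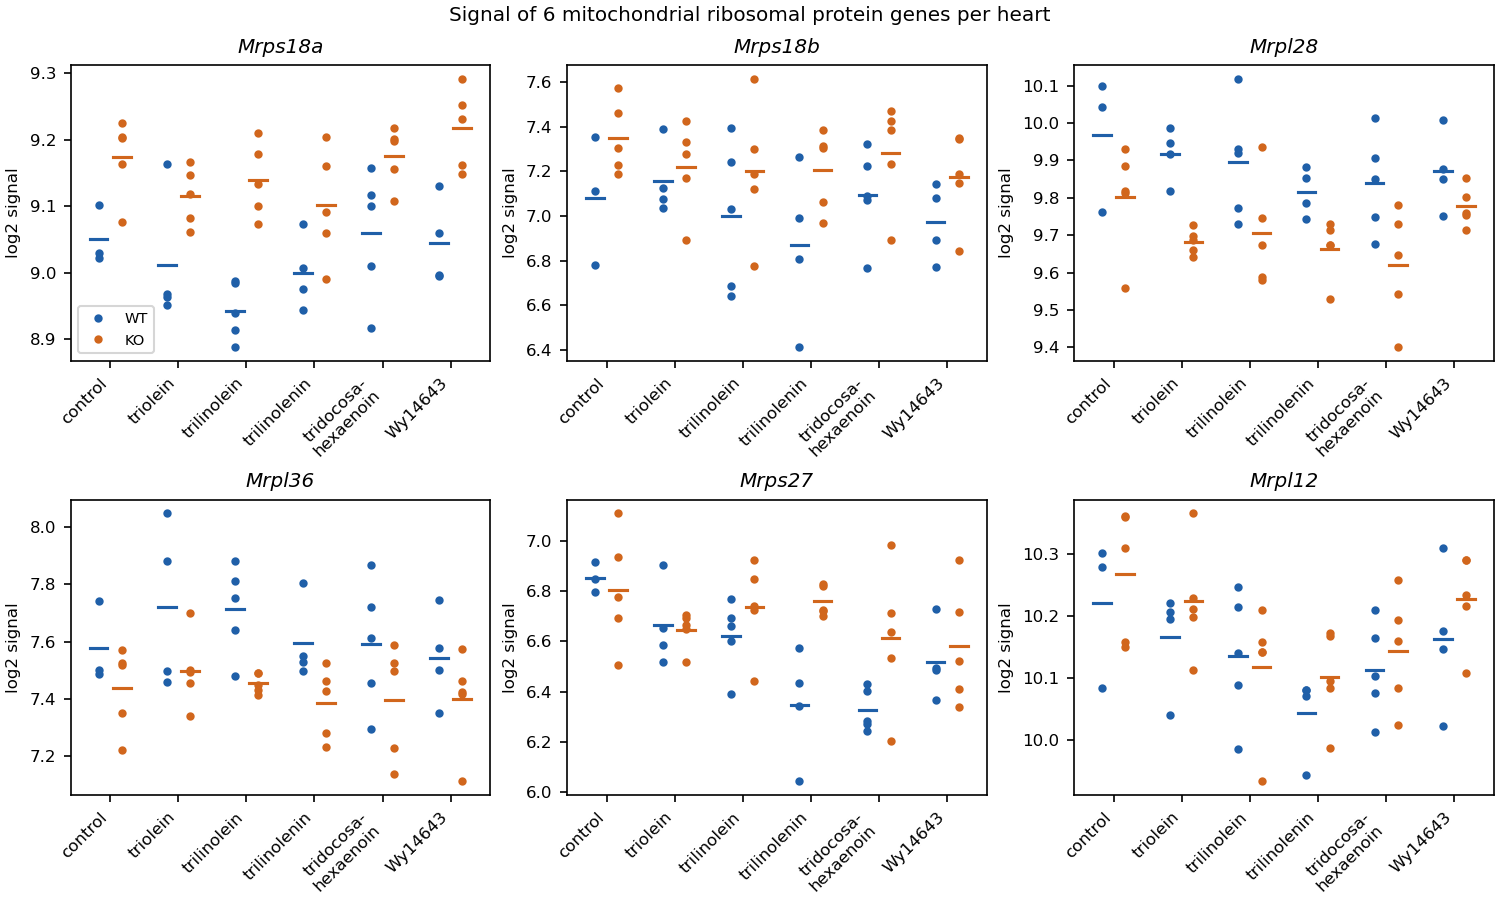
Log2 signal (y axis) of 6 member genes in every heart, 1 point per heart, by gavage (x axis), WT in blue and KO in orange, with group means as lines. Mrps18a shows KO means above WT means in all 6 gavages and Mrpl28 and Mrpl36 show the reverse, while Mrps27 is lowest in WT hearts after trilinolenin and tridocosahexaenoin.

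By structural history, 11 of the 43 members listed with a bacterial counterpart were called between the genotypes (25.6%; 7 higher, 4 lower) and 1 of the 28 listed as found only in mitochondria (3.57%), Mrps27, against 39% of all tested genes. Of 5 genes that the lists placed in neither class, Mrpl55, Mrps18a, Mrps18b, Mrps28 and Mrps36, the first 3 were called. With Mrps18a and Mrps18b counted beside Mrps18c as bacterial counterparts, 13 of 45 were called (28.9%; 9 higher, 4 lower). The called Mrpl55 and the uncalled Mrps28 and Mrps36 stayed in neither class, so the shares of both classes depend on their placement. The difference between the classes was not tested. Of the 15 called members 5, Mrps18a, Mrps18b, Mrpl2, Mrpl14 and Mrpl28, were among the 8 members that RefSeq places on chromosome 17, a grouping chosen after the values were seen; 40.3% of the 382 tested genes of that chromosome were called. Of the members known from human disease or for other functions, Mrps22 differed by 0.072 ± 0.032 (limma, adjusted p = 0.0687), Mrpl44 by -0.026, Mrps30 by -0.04, Mrps36 by -0.013 and Mrpl41 by -0.064. Mrpl58, a peptidyl-tRNA hydrolase built into the large subunit, differed by 0.041, and Mrpl12, a stalk protein that also binds the mitochondrial RNA polymerase, by 0.04. None of these 7 was called (adjusted p = 0.0687 to 0.758), although Mrps22 was called after quantile normalization again (0.044), with array weights (0.025), with the replicate number as a block (0.0281) and when any of 6 hearts was left out (0.0126 to 0.0489: WT control replicate 2, WT trilinolenin replicate 2, WT trilinolein replicate 1, WT Wy14643 replicate 4, KO control replicate 5 and KO Wy14643 replicate 5), and Mrpl41 and Mrps30 after centring, as given above.

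Within single gavages, which share no arrays, few members were called. With the control gavage 0 of 76 were called by limma (2 at an unadjusted p under 0.05), against 3.62% of all tested genes. After triolein 0 were called (5 unadjusted, background 7.93%) and after tridocosahexaenoin 0 (10 unadjusted, background 9.57%). Each background is the share of all tested genes called at an adjusted p under 0.05. It does not match the unadjusted counts, for which no share of all tested genes is given. After trilinolein only Mrps18a was called, higher in KO hearts (background 9.63%, and 5.06% higher). The WT hearts read 8.98, 8.94, 8.99, 8.91 and 8.89 and the KO hearts 9.18, 9.07, 9.10, 9.13 and 9.21, without overlap, a difference of 0.20 ± 0.046 (SE; limma, adjusted p = 0.00283). Over the 6 gavages 16 of the 76 members (21.1%) kept the same sign, 11 higher and 5 lower in KO hearts, against 33.4% of all tested genes.

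After trilinolenin 2 members were called, both higher in KO hearts, against 9.54% of tested genes called and 4.81% called higher. Mrps27 read 6.44, 6.57, 6.04 and 6.34 in WT and 6.83, 6.72, 6.82, 6.73 and 6.70 in KO hearts, a difference of 0.41 ± 0.118 (SE; limma, adjusted p = 0.0169) between groups that did not overlap. Without WT trilinolenin replicate 3, the lowest heart, it was 0.31 and not called (adjusted p = 0.133). Mrpl15 read 9.36, 9.52, 9.32 and 9.24 in WT and 9.54, 9.57, 9.50, 9.53 and 9.52 in KO hearts (difference 0.17 ± 0.054, adjusted p = 0.031 by limma). Its call was lost when any of 5 hearts was left out, WT replicates 1, 3 and 4 and KO replicates 1 and 2 (adjusted p = 0.0587 to 0.163). Mrps27 differed by -0.05 with the control gavage, -0.019 after triolein, 0.11 after trilinolein, 0.29 after tridocosahexaenoin and 0.063 after Wy14643, so it was largest after trilinolenin and tridocosahexaenoin. Whether the gavages differ was not tested.

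After Wy14643 3 members were called, all higher in KO hearts, against 9.28% of tested genes called and 4.39% called higher. Mrpl2 read 9.67, 9.66, 9.66 and 9.67 in WT and 9.80, 9.96, 9.75, 9.81 and 9.83 in KO hearts, without overlap (difference 0.16 ± 0.046, limma adjusted p = 0.0168). Mrps18a read 8.99, 9.06, 9.00 and 9.13 in WT and 9.29, 9.23, 9.15, 9.25 and 9.16 in KO hearts, also without overlap (difference 0.17 ± 0.049, limma adjusted p = 0.0168). Mrps15, a small subunit protein with a bacterial counterpart, read 8.32, 8.72, 8.75 and 8.79 in WT and 8.95, 8.83, 8.84, 8.77 and 8.91 in KO hearts (difference 0.21 ± 0.068, limma adjusted p = 0.0354). The Mrps15 difference rested on WT Wy14643 replicate 1, without which it was 0.11 and not called (adjusted p = 0.383). Without that heart, and without KO Wy14643 replicate 1, Mrpl2 was the only one of the 3 still called. Mrpl2 in turn was not called without KO Wy14643 replicate 2 (adjusted p = 0.0833), nor Mrps18a without WT Wy14643 replicate 3 (0.0659), and none of the 3 was called when no filter on dim genes was used (0.0534 to 0.0785) or when only these 2 groups were fitted (0.115 to 0.22).

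Related gene groups also had calls between the genotypes, set here against the 39% of all tested genes. Of 75 subunits of the oxidative phosphorylation complexes, whose mitochondrially encoded partners are the products of this ribosome, 13 were called between the genotypes (17.3%; 7 higher, 6 lower), with a median of 0.002 (-0.018 after centring). Of 42 proteins of the cytosolic ribosome 9 were called (21.4%; 7 higher, 2 lower), with a median of 0.02 (-0.001 after centring). Of 31 factors of mitochondrial translation and ribosome assembly 9 were called (29%; 6 higher, 3 lower). Among these were larger differences than in any member: Mrm1 and Mrm3, which methylate the large mitochondrial ribosomal RNA, were higher by 0.42 ± 0.058 (SE; limma, adjusted p = 8.12e-08) and 0.29 ± 0.038 (1.51e-08). The GTPase Mtg2 was higher by 0.13 and the assembly factor Ngrn by 0.11, whereas the helicase Ddx28 was lower by -0.23, and Ptcd3, a protein of the small subunit outside the naming scheme, and Lrpprc, which stabilizes mitochondrial messenger RNAs, by -0.085 and -0.083. Dap3, a small subunit protein that also lacks an Mrps symbol, differed by 0.022 and was not called.

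Of 11 regulators of nuclear genes for mitochondria 5 were called between the genotypes, against 39% of all tested genes. Both counts include Ppara, the targeted gene, whose call follows from the knockout and is no result about the other regulators. Ppargc1a and Polrmt were higher and Tfb2m (-0.088), Myc (-0.39) and Ppara itself (-0.77) lower. Ppargc1a, the coactivator PGC-1α, read 8.52 to 10.14 (median 8.92) in WT and 8.76 to 10.19 (median 9.41) in KO hearts, overlapping ranges with a difference of 0.40 ± 0.073 (SE; limma, adjusted p = 1.66e-05). Polrmt, the mitochondrial RNA polymerase, was higher by 0.13 ± 0.027 (adjusted p = 0.00015 by the same fit). Ppargc1b (0.054), Esrra (0.09), Gabpa (-0.073) and Tfam (-0.038) were not called (adjusted p = 0.0858 to 0.626). The Nrf1 probe set, at 2.98 to 4.07 over all hearts, was below the brightness minimum and was not tested.

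After the triglycerides, the members that changed all fell. The mean of the 4 triglyceride groups was compared with the control group of the same genotype, and the differences of both genotypes were averaged, with 38 triglyceride and 8 control hearts. Of the 76 members 8 were called (10.5%), 8 lower and 0 higher, against 14.6% of all tested genes (5.51% higher and 9.09% lower). They were Mrps27, Mrpl18, Mrpl49, Mrps34, Mrps23, Mrpl12, Mrpl51 and Mrpl39, 5 Mrpl and 3 Mrps genes, and their falls were at most 1.18-fold. The median log2 difference was -0.04 over the members and -0.018 over all tested genes, and 56 members lay below 0 (52 after centring). With arrays weighted by their quality 15 were called, 14 lower and 1 higher, Mrpl23 by 0.099 (limma, adjusted p = 0.0423). The share of all tested genes called with weights is not given, so the 15 cannot be set against the 14.6%. Mrps22 differed by -0.102 ± 0.046 (SE) and was not called. It was called with array weights (limma, adjusted p = 0.0491) and without KO control replicate 5 (0.0459). Other members named whatever their values were not called either. They were Mrps18b (-0.089), Mrps36 (-0.046), Mrps18a (-0.045), Mrpl41 (-0.036), Mrpl58 (-0.032), Mrpl44 (-0.005), Mrps18c (0.005) and Mrps30 (0.068). For Mrpl44 the bright probe sets not chosen gave -0.105 ± 0.03, -0.032 ± 0.067 and 0.009 ± 0.041 (SE). For Mrpl41 the other bright set gave -0.127 ± 0.058 (SE).

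The fall of Mrps27, a small subunit protein found only in mitochondria and of the RNA-binding pentatricopeptide repeat type, was the largest of the 8. Its WT control hearts read 6.85, 6.92 and 6.80 and its 18 WT triglyceride hearts 6.04 to 6.91 (median 6.48), with 17 of the 18 below every control. Its KO control hearts read 7.11, 6.70, 6.94, 6.78 and 6.50 and its 20 KO triglyceride hearts 6.20 to 6.98 (median 6.71), with only 2 below every control. The log2 difference was -0.24 ± 0.07 over both genotypes (SE; limma, adjusted p = 0.0148), -0.36 ± 0.11 in WT and -0.12 ± 0.088 in KO hearts. The difference between the genotypes was 0.25 ± 0.141 (SE; limma, interaction, adjusted p = 0.997), so the stronger fall in WT hearts did not pass the test. Without WT control replicate 2 the fall over both genotypes was -0.22 and not called (adjusted p = 0.069).

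Mrpl18, the counterpart of a bacterial protein that holds a small ribosomal RNA in the large subunit, fell in both genotypes by similar amounts. Its WT control hearts read 9.86, 9.95 and 9.88 and its WT triglyceride hearts 9.52 to 9.96 (median 9.74), with 15 of 18 below every control. Its KO control hearts read 9.86, 9.97, 10.03, 10.05 and 9.79 and its KO triglyceride hearts 9.59 to 9.87 (median 9.75), with 14 of 20 below every control. The difference was -0.18 ± 0.041 over both (SE; limma, adjusted p = 0.00177), -0.16 in WT and -0.20 in KO hearts.

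Mrpl12, the stalk protein whose promoter is printed above, fell less. Its WT control hearts read 10.28, 10.30 and 10.08 and its WT triglyceride hearts 9.94 to 10.25 (median 10.10), with 8 of 18 below every control. Its KO control hearts read 10.15, 10.31, 10.36, 10.36 and 10.16 and its KO triglyceride hearts 9.93 to 10.37 (median 10.16), with 9 of 20 below every control. The groups overlapped in both genotypes, and the difference was -0.11 ± 0.039 (SE; limma, adjusted p = 0.0395), -0.11 in WT and -0.12 in KO hearts.

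The other called members fell by 0.16 (Mrpl49), 0.14 (Mrps34), 0.12 (Mrps23), 0.099 (Mrpl51) and 0.092 (Mrpl39) on the log2 scale (limma, adjusted p = 0.00981 to 0.0453). These 5 proteins have no bacterial counterpart. Mrps34 read 9.10 to 9.33 in WT controls and 8.86 to 9.38 in WT triglyceride hearts, of which 11 of 18 lay below every control. For Mrpl51 and Mrpl39 that number was 16 of 18 each, with Mrpl51 at 11.74 to 11.79 in controls and 11.51 to 11.75 in triglyceride hearts. In KO hearts 12 of 20 triglyceride hearts lay below every control for Mrpl51, 8 for Mrps34 and 4 for Mrpl39. The second bright probe sets of Mrpl49, Mrps23, Mrpl51 and Mrpl39 also gave negative differences, of -0.11, -0.17, -0.23 and -0.14. By the same lists 6 of the 28 members found only in mitochondria (21.4%) and 2 of the 43 with a bacterial counterpart (4.65%) were called lower, against 9.09% of all tested genes, and the difference between the classes was not tested.

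The number of called members rested on single control hearts. It fell to 3 without WT control replicate 1, without WT control replicate 2 and without KO control replicate 3, to 4 without KO control replicate 4 and to 5 without KO control replicate 2, and it rose to 12 without KO control replicate 5. Matching shares of all tested genes are not given for these counts, nor for the count after centring. Centring each array on the median of the tested genes also left 3 calls, and moved the medians to -0.028 over the members and -0.006 over all tested genes. Mrpl12, Mrpl49, Mrps23 and Mrps34 lost their call under that centring (adjusted p = 0.0501 to 0.0604) and with no filter on dim genes (0.0559 to 0.0874), and each of them did so also when one or more of the control hearts were left out. Mrpl18 was called in each of these fits. Mrps27 also kept its call after centring and with no filter, and each of those fits left 3 calls. The 3 cannot include both Mrpl51 and Mrpl39, which were not followed singly. The Actb 3′ to 5′ difference was 0.70 to 0.91 (median 0.80) in control and 0.47 to 0.88 (median 0.72) in triglyceride hearts, and its part in the falls was not tested. Of the cell type markers 2 of 5 for macrophages were higher and 2 of 6 for endothelium and 1 of 6 for fibroblasts were lower after the triglycerides, with summed signals of 767 to 969, 1370 to 1590 and 5690 to 6390 in control and 720 to 1250, 1210 to 1560 and 5300 to 7480 in triglyceride hearts. None of 4 atrial muscle markers was called, but their median log2 difference was 0.60 and their sum varied widely, from 5120 to 17700 in control and 4740 to 19700 in triglyceride hearts. None of 4 smooth muscle markers was called either (median 0.19, sums 961 to 1970 and 956 to 2250). Over all tested genes 14.6% were called in this comparison. The part of these markers in the falls was not tested.

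**Figure D3:**
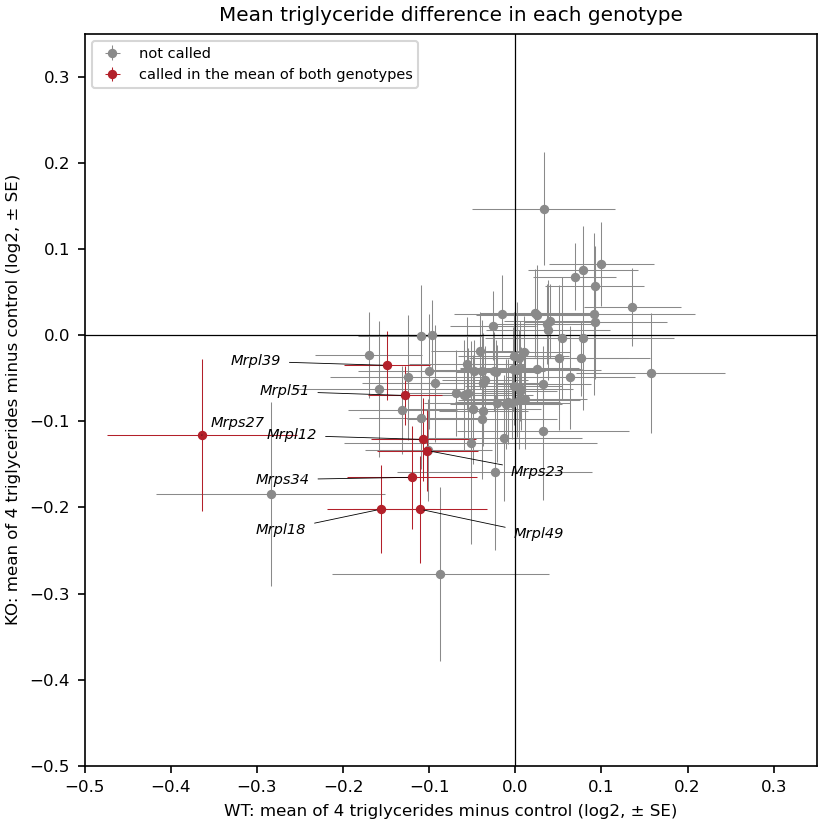
Log2 difference between triglyceride and control hearts in WT (x axis) and KO mice (y axis), each the mean of 4 triglycerides with its SE, 1 point per member gene and the 8 called genes in red. All 8 called genes lie below 0 on both axes, and Mrps27 lies farthest to the left, at -0.36 in WT and -0.12 in KO hearts.

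Because the genotypes have separate control hearts, the signs of the triglyceride differences could be compared between them. Of the 76 members 43 (56.6%) lay below 0 in both genotypes and 13 (17.1%) above 0 in both, against 40.5% and 27.7% of all tested genes. Among the Mrps genes 21 of 29 (72.4%) lay below in both and among the Mrpl genes 22 of 47 (46.8%). Subunits of oxidative phosphorylation lay below in both in 60% of 75 cases, and cytosolic ribosomal proteins in 7.14% of 42, with 52.4% of these above 0 in both. Among the oxidative phosphorylation subunits 4 were called, all lower, and among the cytosolic ribosomal proteins 1, which was higher. Over all tested genes 14.6% were called, 9.09% lower and 5.51% higher. The differences in sign were small in size, and they moved with the scaling. The medians were -0.018 in WT and -0.046 in KO hearts for the members, against -0.023 and -0.012 over all tested genes. After centring, 43.4% of the members lay below 0 in both genotypes and 19.7% above, against 35.7% and 31.6% of all tested genes. The WT median of the members turned to 0.01 while their KO median was -0.051, against 0.006 and -0.017 over all tested genes. The share below in both was then 55.2% for the Mrps genes, 36.2% for the Mrpl genes and 28% for the oxidative phosphorylation subunits. Of the cytosolic ribosomal proteins 83.3% lay above in both. After quantile normalization again the share of members below in both was 50% (36.4% of all tested genes), 62.1% for Mrps and 42.6% for Mrpl genes. The genes share the same arrays, and these shares carry no test.

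Single triglycerides, compared with the control of the same genotype, gave few calls, and all that they gave were falls. In WT hearts triolein gave 0 calls by limma (2 at an unadjusted p under 0.05, background 0.0728% called) and trilinolein 0 (9 unadjusted, background 1.25%). These backgrounds are again shares called at an adjusted p, and the unadjusted counts have no matching share beside them. Trilinolenin gave 2 falls (background 3.41%, and 1.98% lower), Mrps27 at -0.51 ± 0.134 (SE; limma, adjusted p = 0.0244) and Mrpl51 at -0.18 ± 0.052 (adjusted p = 0.0408), and tridocosahexaenoin gave 1 (background 1.86%, and 1.09% lower), Mrps27 at -0.53 ± 0.128 (limma, adjusted p = 0.0253). Mrps27 read 6.44, 6.57, 6.04 and 6.34 after trilinolenin and 6.43, 6.40, 6.27, 6.24 and 6.28 after tridocosahexaenoin, in both groups below each of the 3 control hearts, which both comparisons share. These calls were lost without WT control replicate 1 (adjusted p = 0.0694 and 0.0961 for Mrps27) and without WT control replicate 2 (0.122 and 0.16). They were lost also without WT trilinolenin replicate 3 or 4 (0.116 and 0.0533) and without WT tridocosahexaenoin replicate 3 or 5 (0.0604 and 0.0812), while WT control replicate 3 decided only the trilinolenin call (0.0583). The Mrpl51 call was lost without any 1 of the same WT control and trilinolenin hearts (adjusted p = 0.105 to 0.141).

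In KO hearts triolein gave 0 calls by limma (6 unadjusted, background 1.15%), trilinolein 0 (6 unadjusted, background 4.32%) and tridocosahexaenoin 0 (9 unadjusted, background 3.54%). Here too the backgrounds count calls at an adjusted p and do not match the unadjusted counts. Trilinolenin gave 2 (background 11.9%, and 7.3% lower), both falls. Mrpl49, a large subunit protein of mitochondria alone, read 7.25, 7.03, 7.21, 7.46 and 7.15 against controls of 7.52, 7.34, 7.64, 7.66 and 7.40, a difference of -0.29 ± 0.079 (SE; limma, adjusted p = 0.00952). Mrpl18 read 9.68, 9.67, 9.67, 9.84 and 9.67 against controls of 9.86, 9.97, 10.03, 10.05 and 9.79, a difference of -0.23 ± 0.064 (adjusted p = 0.0117 by the same fit). In both genes 4 of the 5 treated hearts lay below every control, and replicate 4 lay within the control range. Without KO trilinolenin replicate 2 the Mrpl49 call was lost (adjusted p = 0.0504), and without KO control replicate 5 the count rose to 4.

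**Figure D4:**
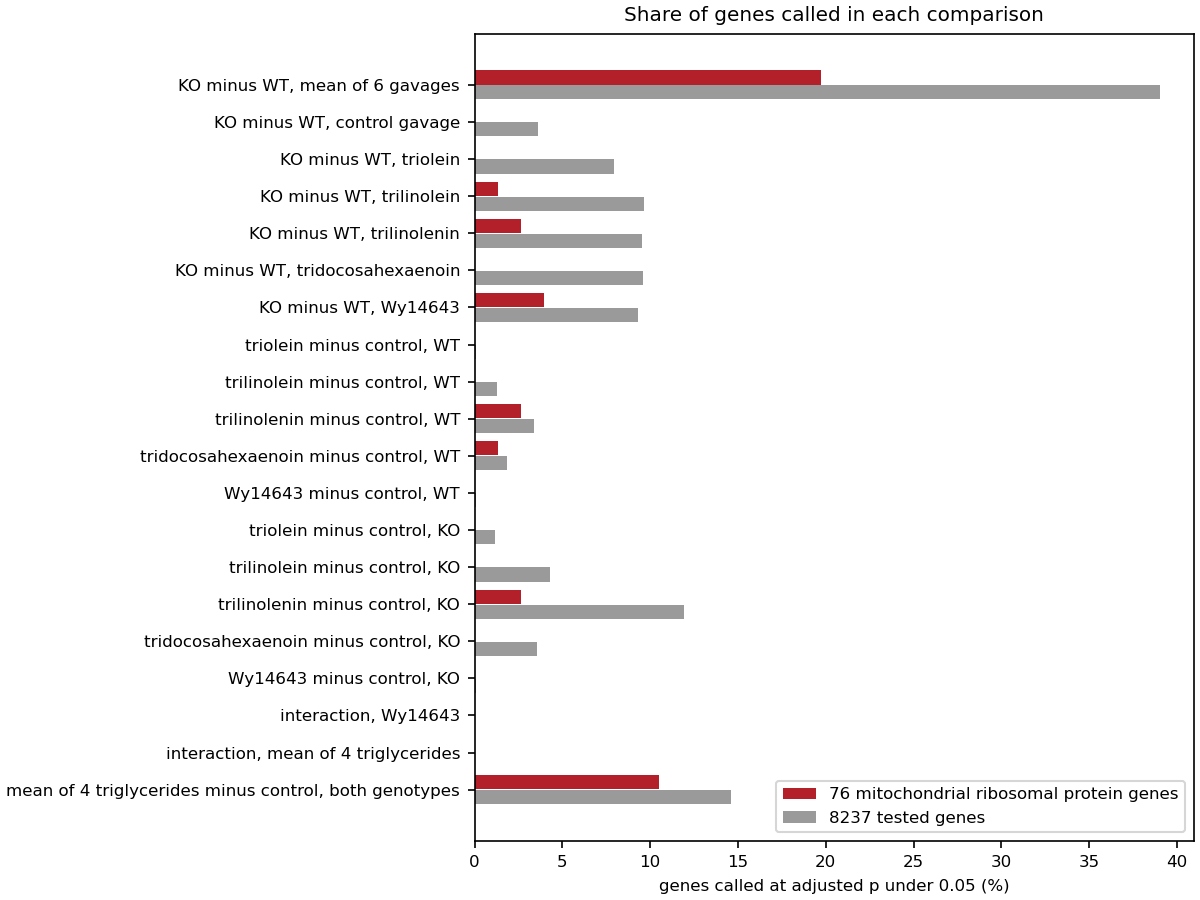
Percentage of genes called at an adjusted p under 0.05 (x axis, bars from 0) in each of 20 comparisons (y axis), for the 76 mitochondrial ribosomal protein genes in red and all 8237 tested genes in grey. The red bar is the shorter in every comparison where any gene of either set was called, for example 19.7% against 39% for the mean genotype difference and 10.5% against 14.6% for the mean triglyceride difference.

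After the PPARα agonist no member passed the threshold. Wy14643 gave 0 calls by limma in WT hearts (5 at an unadjusted p under 0.05, background 0.0607%) and 0 in KO hearts (5 unadjusted, background 0.0728%). All backgrounds in this paragraph count calls at an adjusted p under 0.05. They cannot be set against the unadjusted counts, whose share over all tested genes is not given. The median member difference was -0.063 in WT and -0.042 in KO hearts, and the 95% interval lay within 1.5-fold for 74 and 76 of the 76 members. No member passed the test of a difference between the genotypes in the response to Wy14643 (limma interaction, 0 called, 3 unadjusted, background 0%) or in the mean response to the triglycerides (limma interaction, 0 called, 0 unadjusted, background 0%). The intervals of the latter difference lay within 1.2-fold for 51 members and within 1.5-fold for 76, which bounds its size.

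Of the 11 regulators 3 were called after the triglycerides, Ppargc1b, Tfam and Myc, against 14.6% of all tested genes. Ppargc1b, the coactivator PGC-1β, was lower by -0.62 ± 0.116 (SE; limma, adjusted p = 0.000223), and Tfam, which packages mitochondrial DNA and starts its transcription, by -0.15 ± 0.045 (adjusted p = 0.0206), whereas Myc was higher by 0.50 ± 0.156 (0.0225). Ppargc1a (0.011), Gabpa (-0.12), Esrra (-0.081) and Polrmt (-0.087) were not called (adjusted p = 0.132 to 0.964). Of the 31 factors of translation and assembly 3 were called, all lower, against 14.6% of all tested genes (9.09% lower). They were Mrm1 (-0.32), the initiation factor Mtif2 (-0.16) and Ptcd3 (-0.13). Mrm1 thus differed in opposite directions between genotypes and after the triglycerides.

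From heart to heart the members moved together within groups. After subtraction of the group means, the median correlation between pairs of members over the 55 arrays was 0.31, against 0.33 between pairs of cytosolic ribosomal protein genes and 0.25 between pairs of oxidative phosphorylation subunits. Each member was also compared with the median of the others, and 75 of 76 correlations were above 0, with a median of 0.53. Mrpl13 reached 0.86, Mrpl34 0.84 and Mrpl41 and Mrpl22 0.83, and Mrpl52 was lowest at -0.23. These values describe genes that share the same arrays, RNA quality and normalization, and carry no test.

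The same shared movement shows in the median deviation of the 76 genes from their means in each heart. It ran from -0.119 to 0.125 in WT and from -0.07 to 0.129 in KO hearts, with means of -0.005 ± 0.067 (SD, n = 25) and 0.007 ± 0.051 (SD, n = 30). The group means ran from -0.044 in WT Wy14643 to 0.043 in KO control hearts, and the spread within a group, an SD of 0.03 to 0.09, was as large as the distance between most groups. Every treated group overlapped its control.

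**Figure D5:**
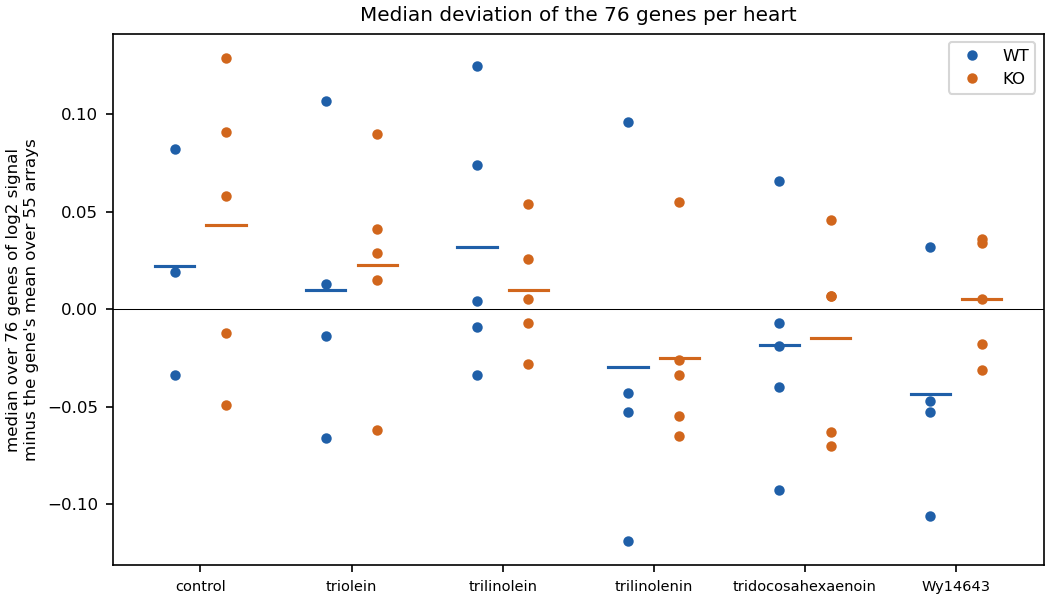
Median over the 76 genes of the log2 signal minus the gene's mean over 55 arrays (y axis), 1 point per heart, by gavage (x axis), WT in blue and KO in orange, with group means as lines. Every group overlaps every other group, and all points lie between -0.119 and 0.129.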

How the data were processed

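Hearts of 55 mice in 12 groups were measured on 1 array each. The authors deposited log2 signals of 45101 probe sets, made with GCRMA 2.2.0 per the submitters' processing notes, which corrects background, normalizes by quantiles and summarizes probes. The scanner software is not given in the sources used here. Array medians were 2.55 to 2.61, and array number limits the precision. Values were used as deposited. Probe sets with exactly 1 symbol (34958) were kept, except control probe sets, and each gene took its brightest one. Genes over 20 on the linear scale in 3 or more arrays were tested.

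Comparisons were contrasts of 12 group means in limma 3.58.1 (lmFit and eBayes, R 4.3.3; 43 residual and 3.26 prior degrees of freedom), with Benjamini-Hochberg adjustment over 8237 genes. The labels do not say whether animals shared a litter or day, so p-values rest on the spread among these hearts alone. Replicate numbers of the groups did not pair the hearts: residuals of arrays with the same number in different groups correlated with a median of 0 (281 pairs), those with different numbers at -0.009 (1103 pairs).

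Members and lists were chosen with earlier results of these data known. Named in each comparison were up to 8 rises and 8 falls among called members for the mean genotype difference and up to 5 of each elsewhere. In the mean genotype and mean triglyceride differences, index members were named whatever their values (Mrpl12, Mrpl41, Mrpl44, Mrpl58, Mrps18a, Mrps18b, Mrps18c, Mrps22, Mrps30 and Mrps36). Also named were up to 4 called rises and 4 falls of the translation list between genotypes, and the main regulators. Mrpl11, Mrpl39, Mrpl51 in the pooled triglyceride comparison, the members with extreme spread or correlation, Dap3, Myc, Tfb2m and the translation factors after triglycerides were named after their values were seen. The fit was tested on simulated data. Alternatives were no filter, a filter at 100, the mean of all probe sets, quantile normalization again, centring, array weights (0.472 to 1.72), the replicate block, only the groups compared, and each array left out. Shares of signs under both scalings and the count with Mrps18a and Mrps18b as bacterial counterparts were added after seeing the data. RefSeq (GRCm38.p6) supplied promoters and chromosomes; all 76 genes matched by Entrez number.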

Additional observations from a re-analysis of the deposited data

Results flagged for a closer look

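Within groups of 4 or 5 hearts, 23 of 308 checks of a named member found 1 heart whose gap to its nearest neighbour took an unusually large part of the group's range; chance gives about 1 in 20 such checks. Low hearts, with the range of the other hearts of their group, were these on the log2 scale. Mrps15 read 8.32 in WT Wy14643 replicate 1 (others 8.72 to 8.79) and 8.73 in KO triolein replicate 4 (8.87 to 8.91). Mrpl12 read 10.04 in WT triolein replicate 3 (10.2 to 10.22), 9.94 in WT trilinolenin replicate 3 (10.07 to 10.08) and 9.93 in KO trilinolein replicate 4 (10.14 to 10.21). Mrps22 read 8.6 in WT triolein replicate 3 (8.79 to 8.82). Mrpl28 read 9.53 in KO trilinolenin replicate 1 (9.67 to 9.73) and Mrpl15 9.31 in WT tridocosahexaenoin replicate 2 (9.46 to 9.5). Mrps23 read 9.81 in KO Wy14643 replicate 5 (10.03 to 10.07), Mrps18c 9.35 in KO trilinolein replicate 3 (9.44 to 9.45) and Mrps30 7.57 in KO control replicate 3 (7.64 to 7.67).

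High hearts were as follows. In WT triolein replicate 2, 3 members stood high together: Mrps18a at 9.16 (others 8.95 to 8.97), Mrpl15 at 9.57 (9.39 to 9.4) and Mrpl41 at 10.01 (9.7 to 9.73). In WT trilinolenin replicate 2 Mrps22 read 8.95 (8.53 in the others) and Mrpl36 7.8 (7.5 to 7.55). In WT tridocosahexaenoin replicate 4 Mrps34 read 9.31 (9.04 to 9.09) and Mrpl58 9.12 (9.03 to 9.05). In KO trilinolenin replicate 2 Mrpl14 read 8.17 (7.72 to 7.85) and Mrps30 7.77 (7.67 to 7.7), and in replicate 4 Mrpl18 read 9.84 (9.67 to 9.68). Mrpl14 read 8.4 in WT trilinolein replicate 1 (7.97 to 8.08) and Mrpl9 8.37 in KO control replicate 2 (8.28 to 8.3). No named member had every heart of 1 genotype moved up and every heart of the other moved down by a triglyceride, in 112 checks. Wy14643 was not part of these checks.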

How the results depend on the processing

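Counts of called members were small and moved with single hearts, the filter and the scaling. No named value that was called changed sign. Among uncalled values, the genotype difference of Mrps18c changed sign (-0.011 after centring, -0.002 without WT control replicate 3), as did the triglyceride differences of Mrpl44 (0.007 after centring), Mrpl58 (0.01 with the mean of all probe sets) and Mrps18c (-0.01 with array weights) and, with 1 heart left out, those of Mrpl44 (up to 0.012) and Mrps18c (down to -0.029). Centring changed the balance of genotype calls from 11 higher and 4 lower to 7 and 8. The mean genotype difference gave 14 to 17 calls with 1 heart left out, and the mean triglyceride difference 3 to 12.

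Numbers of called members that moved by over 1.5 times were these. With no filter on dim genes: KO against WT after trilinolenin 1 and after Wy14643 0, trilinolenin in WT 1, mean of triglycerides 3. With a filter at 100: KO against WT after triolein 1 and tridocosahexaenoin 1, trilinolein in KO 1. With the mean of all probe sets: KO against WT after triolein 3, trilinolenin 1 and tridocosahexaenoin 3, trilinolenin in KO 1. After quantile normalization again: KO against WT after triolein 1 and tridocosahexaenoin 1. After centring: KO against WT after triolein 1, trilinolenin 1 and tridocosahexaenoin 1, trilinolenin in WT 1, trilinolein in KO 1, mean of triglycerides 3. With array weights: KO against WT after triolein 1, trilinolenin in WT 4, tridocosahexaenoin in WT 2, triolein in KO 2, trilinolein in KO 2, mean of triglycerides 15, which included all 8. With only the groups compared: KO against WT after triolein 1, trilinolenin 1 and Wy14643 0, trilinolenin in WT 0 and in KO 0. The causes were not tested. Shares of all tested genes called are not given for these fits or for those with 1 heart left out.

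With 1 heart left out the counts for KO against WT were 0 to 1 (triolein), 1 to 2 (trilinolein), 0 to 3 (trilinolenin), 0 to 1 (tridocosahexaenoin) and 1 to 4 (Wy14643). For treatments they were 0 to 2 for trilinolenin and 0 to 2 for tridocosahexaenoin in WT, and in KO 0 to 1 (triolein), 0 to 2 (trilinolein), 1 to 4 (trilinolenin) and 0 to 1 (tridocosahexaenoin). The other counts were 0 in each such fit.

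The replicate numbers did not pair the hearts (12 of 55 arrays correlated best with an array of their own number). With the replicate number as a block the mean genotype difference had 17 calls, which included all 15, the mean triglyceride difference 8, of which 7 were shared, and trilinolein in KO 1 in place of 0; no other count moved by over 1.5 times.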
